A study of Homo sapiens with 6 samples.

Results

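The replication-dependent histone cluster genes were taken as every protein-coding row of the deposited human gene table whose symbol begins with HIST1H, HIST2H, HIST3H or HIST4H. The rule uses names and biotype only, and it gave 71 genes among 58735 gene rows. They comprised 6 genes for the linker histone H1, 17 for H2A, 18 for H2B, 15 for H3 and 15 for H4. By cluster, 55 belonged to HIST1, 12 to HIST2, 3 to HIST3 and 1 to HIST4. RNA-seq was done on 6 libraries of Mum-2b, a cell line labelled as uveal melanoma. The 3 knockdown libraries came from cells with the genotype NELFCD_knockdown, whose titles name 1 hairpin (shRNA1), and the 3 control libraries came from cells labelled NC with the genotype WT. A single hairpin was used, so loss of the target and other effects of that hairpin cannot be told apart, and the labels do not say whether the libraries of a group were separate cultures. The p-values therefore measure the spread between these libraries, which may be technical.

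Replication-dependent histone genes are transcribed mainly during S phase, and most have no introns. Their messages typically end in a short conserved stem-loop bound by the stem-loop binding protein SLBP, in place of a poly(A) tail, although some of these genes also give polyadenylated messages. NELF, the negative elongation factor of which NELFCD encodes a subunit, holds RNA polymerase II near promoters, and in human cells it has been linked with the cap-binding complex in forming the 3′ ends of histone messages. The libraries were made with a SMARTER mRNA-seq kit, per the labels, and the sources used here do not say how that kit selected or primed the RNA.

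NELFCD itself was at 20.6, 37.4 and 40.2 CPM (counts scaled to library size, here with the trimmed mean of M-values, TMM) in knockdown replicates 1, 2 and 3, against 65.3, 88.2 and 83.4 CPM in control replicates 1, 2 and 3. Its mean in knockdown cells was 41.4% of the control mean, and the groups did not overlap. Its log2 fold change with the replicate block was -1.30 (edgeR adjusted p = 0.00046), and without it -1.27 (edgeR adjusted p = 0.532). Library totals ran from 14306733 to 16656630 counts. Replicate 1 of each group stood apart from replicates 2 and 3, with a chi-square per degree of freedom over genes of 101 to 115, whereas replicates 2 and 3 differed by 2.06 in knockdown cells and 2.21 in control cells. Libraries with the same replicate number deviated from their group means together, so edgeR's quasi-likelihood test was run without and with the replicate number as a block. The text says which fit a value comes from. Because replicate 1 dominates these deviations, they do not show how replicates 2 and 3 match between groups. Their pairing follows the numbers in the titles only. Among 8 melanocyte lineage markers PAX3 had no count and 5 averaged under 1 CPM, and the list summed to 7.59 to 18.2 CPM in knockdown libraries and 7.49 to 10.7 CPM in control libraries. The keratin-led list of 6 epithelial markers summed to 1054 to 1459 CPM in knockdown libraries and 684 to 1299 CPM in control libraries. Of these 6, 4 averaged under 1 CPM, among them KRT5 with no count, and KRT8 alone averaged 772 CPM over the 6 libraries.

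The annotated transcripts of 32 of the 71 genes (45.1%) held the 16-base histone stem-loop, against 50 of 19684 protein-coding genes with transcripts searched (0.254%). The search, on the transcript strand, allowed either pyrimidine inside the first arm and either purine inside the second arm. The outer arm bases and those beside the loop were fixed. In the loop the search allowed either pyrimidine at the second base and any last base. The search was made in the GENCODE 29 transcripts, whose gene lengths and hg38 coordinates equal those of the deposited table for all 71 genes. A common form, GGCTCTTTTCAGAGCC, was held by 17 genes. The sites of 6 genes are shown because their values carry most of what follows, with the stem-loop in capitals and 5 transcript bases on each side, written as DNA.
HIST1H4H: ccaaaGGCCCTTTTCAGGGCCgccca
HIST1H2BD: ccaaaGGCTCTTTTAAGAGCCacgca
HIST1H4I: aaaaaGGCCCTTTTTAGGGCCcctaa
HIST2H2BE: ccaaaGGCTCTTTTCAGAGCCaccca
HIST1H2AC: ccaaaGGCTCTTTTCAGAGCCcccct
HIST3H2A: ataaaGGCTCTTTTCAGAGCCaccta
HIST2H2BE, HIST1H2AC and HIST3H2A share the common form, HIST1H2BD has another base in the loop, and the H4 genes have a stem of their own and differ from each other in the loop. The annotated HIST1H2BK and HIST1H1C models are coding sequence only and hold no stem-loop. By their lengths, most of the 39 models with no stem-loop appear to be coding sequence only. Such a model lacks the message end, so it cannot show whether the gene has a stem-loop.

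Histone cluster transcripts were scarce in all 6 libraries, and their sum was higher in every knockdown library than in any control library. The 71 genes together took 1635, 902 and 796 counts in knockdown replicates 1 to 3, against 724, 707 and 753 counts in control replicates 1 to 3. On the CPM scale these were 108.3, 54.5 and 54.4 in knockdown libraries and 49.5, 49.9 and 47.0 in control libraries. The means were 72.4 ± 31.1 CPM in knockdown cells and 48.8 ± 1.58 CPM in control cells (SD, n = 3 each), a 1.48-fold difference. The log2 ratio of the means was 0.57 over all libraries and 0.16 without knockdown replicate 1. Within replicate numbers the ratio of knockdown to control was 2.19, 1.09 and 1.16. The exact Poisson 95% interval of the sum was 51.0 to 58.2 CPM in knockdown replicate 2 and 46.3 to 53.8 CPM in control replicate 2, and these intervals overlap. Such intervals cover counting error only.

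Counts were concentrated in few genes. The 5 genes with most counts held 59.5% of all member counts, and 11 genes had no count in any library. The limit that a count of 0 allows (3 counts) was 0.180 to 0.210 CPM per library. Among those 11, HIST1H2AK, HIST1H3D, HIST2H3PS2, HIST1H2AD and HIST1H2AM have 88.0% to 100% of their exon bases inside exons of other genes. HIST1H2AJ shares 83.7% of its 50-base windows with HIST1H2AI. How the authors' counting treated such reads is not given, so a count of 0 need not set that limit for these genes. Of the 71 genes, 17 had enough counts to be tested, namely 2 H1, 3 H2A, 7 H2B, 2 H3 and 3 H4 genes. The other 54 held at most 70 counts each over the 6 libraries. Summed, these untested genes stood at 10.4, 7.98 and 8.34 CPM in knockdown libraries and 5.06, 5.79 and 4.87 CPM in control libraries, so the groups did not overlap there either.

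**Figure D1:**
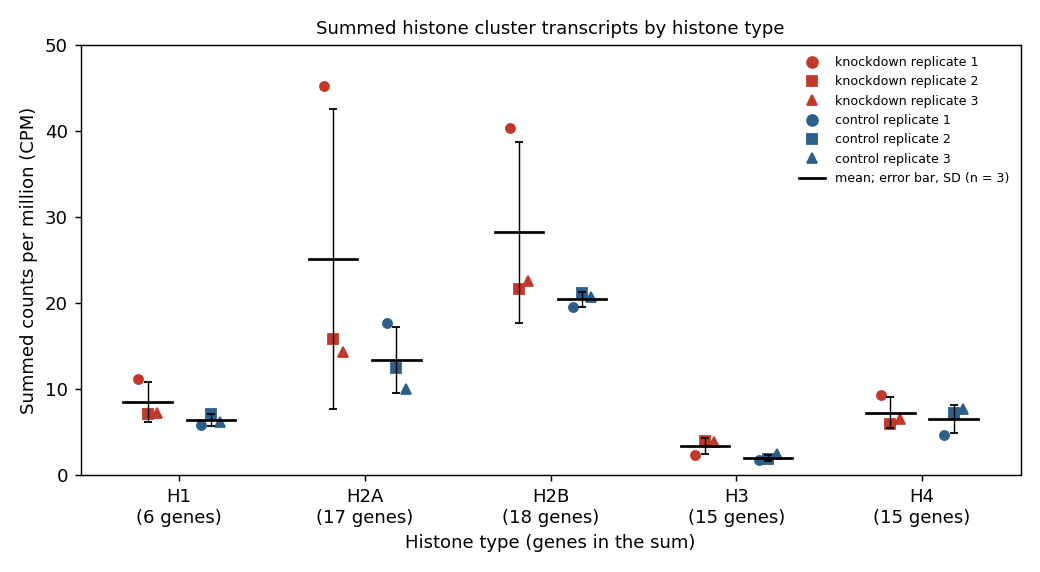
Summed CPM (vertical axis) of all genes of each histone type (horizontal axis), with a point per library, knockdown in red left of control in blue, and bars for the mean and SD of 3 libraries. Knockdown replicate 1 lies above all other libraries for H1, H2A, H2B and H4 and not for H3, where it stood at 2.38 CPM.

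By histone type, H2B was the type whose sum was higher in every knockdown library. The 18 H2B genes summed to 40.3, 21.6 and 22.6 CPM in knockdown libraries, against 19.5, 21.2 and 20.7 CPM in control libraries. H2A genes summed to 45.2, 15.8 and 14.3 CPM in knockdown libraries, against 17.6, 12.5 and 10.1 CPM in control libraries, so the groups overlapped although each knockdown library was above the control library of its number. H3 genes summed to 2.38, 3.99 and 3.83 CPM in knockdown libraries, against 1.78, 1.91 and 2.43 CPM in control libraries. For H3 the lowest knockdown library was just below the highest control library. H1 genes summed to 11.1, 7.13 and 7.18 CPM in knockdown libraries, against 5.88, 7.14 and 6.18 CPM in control libraries. H4 genes summed to 9.27, 5.99 and 6.57 CPM in knockdown libraries, against 4.72, 7.21 and 7.68 CPM in control libraries. Both H1 and H4 overlapped between groups, and for H4 replicates 2 and 3 were lower in knockdown cells. Without knockdown replicate 1 the log2 ratio of the means was 0.11 for H2B, 0.16 for H1, 0.17 for H2A, 0.94 for H3 and -0.058 for H4. Length-scaled sums gave another picture for H2B and H4, and in each type a single gene set it. H2B averaged 27.9 FPKM in knockdown cells and 32.9 FPKM in control cells. Within these sums HIST1H2BK, whose model has 381 bases, averaged 11.8 FPKM in knockdown cells and 24.8 FPKM in control cells. H4 averaged 4.49 FPKM in knockdown cells and 4.77 FPKM in control cells, of which HIST1H4I averaged 1.45 FPKM and 2.95 FPKM. H2A averaged 23.2 FPKM in knockdown cells and 13.6 FPKM in control cells. The H1 direction rests on HIST1H1C, since without it the log2 ratio of the H1 sum was -0.48.

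The HIST2 genes, on chromosome 1, summed to 21.5, 6.53 and 7.52 CPM in knockdown libraries, against 7.24, 4.73 and 5.12 CPM in control libraries. The HIST1 genes of chromosome 6 summed to 57.6, 41.1 and 40.3 CPM in knockdown libraries, against 26.5, 39.0 and 36.3 CPM in control libraries, and here the groups did not overlap. The 3 HIST3 genes summed to 23.8, 5.20 and 5.20 CPM in knockdown libraries and 14.1, 4.52 and 3.99 CPM in control libraries. Replicate 1 of HIST3 was high in both groups.

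Whether single histone genes differed was tested over all 14844 genes that passed a filter on low counts. Without the block, the quasi-likelihood test of edgeR, with p adjusted by Benjamini-Hochberg over all of these genes, called 0 of the 17 tested histone genes, against 0% of all genes tested in either direction. At an unadjusted p under 0.05 it found 5 histone genes higher and 2 lower in knockdown cells. The share of all genes tested at that unadjusted cut was not counted, so these counts have no comparison. Of the 5, HIST1H4H and HIST1H3H passed the filter through the knockdown libraries alone. The smallest adjusted p among the 17 was 0.53. With the replicate block, 2 of the 17 rose, against 5.48% of all genes tested, and 2 fell, against 8.01%. HIST1H4H and HIST1H2BD rose, and HIST1H2BK and HIST1H4I fell. HIST1H2BK, HIST1H2BD and HIST1H4H were also called by edgeR in the blocked fit without pair 1, without pair 2 and without pair 3. These fits reuse the same libraries and leave 1 residual degree of freedom, so they are not separate evidence. Of all genes tested, 12.7% rose and 14.9% fell without pair 1. Without pair 2 these shares were 2.01% and 4.09%, and without pair 3 they were 4.27% and 7.29%. DESeq2 with the block called 1 that rose, HIST1H2BD, against 3.33% of all genes, and 1 that fell, HIST1H2BK, against 6.8%. Limma-voom with the block called the same 4 genes and HIST2H2BE, so that 3 rose, against 5.79% of all genes, and 2 fell, against 8.56%. Without the block limma-voom called 0, and DESeq2 called HIST1H2BD alone, against 0.382% of all genes that rose and 0.849% that fell. The block reduced the biological coefficient of variation over all genes to 8.17%, against 32.6% without it, and left 2 residual degrees of freedom.

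The tested histone genes lay above the middle of all genes. Their median log2 fold change was 0.91 without the block and 0.87 with it, against -0.00057 and 0.0001 over all genes tested. Without pair 1 the blocked median was 0.39, and without knockdown replicate 1 the unblocked median was 0.61. Of the 17, 14 had a positive value, as had 50% of all genes tested. In 8 of the 17 every knockdown library was above every control library, against 7.63% of all genes tested, and in 2 every knockdown library was below, against 7.34%. Of the 17 genes, 2 (HIST1H4H and HIST1H3H) passed the filter through the knockdown libraries alone, with no control library over its level. With HIST1H2BG and HIST1H2BN, 4 had all 3 knockdown libraries over the level and fewer than 3 control libraries, and 0 had the reverse. All 4 are among the 8 genes above without overlap. These counts and medians therefore lean upward by construction. With no filter, over the 60 histone genes with counts, the median was 0.32 without the block and 0.33 with it. Among the 43 untested histone genes with counts the knockdown libraries were all above the control libraries for 4, against 3.71% of all untested genes with counts, and all below for 0, against 1.98%.

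**Figure D2:**
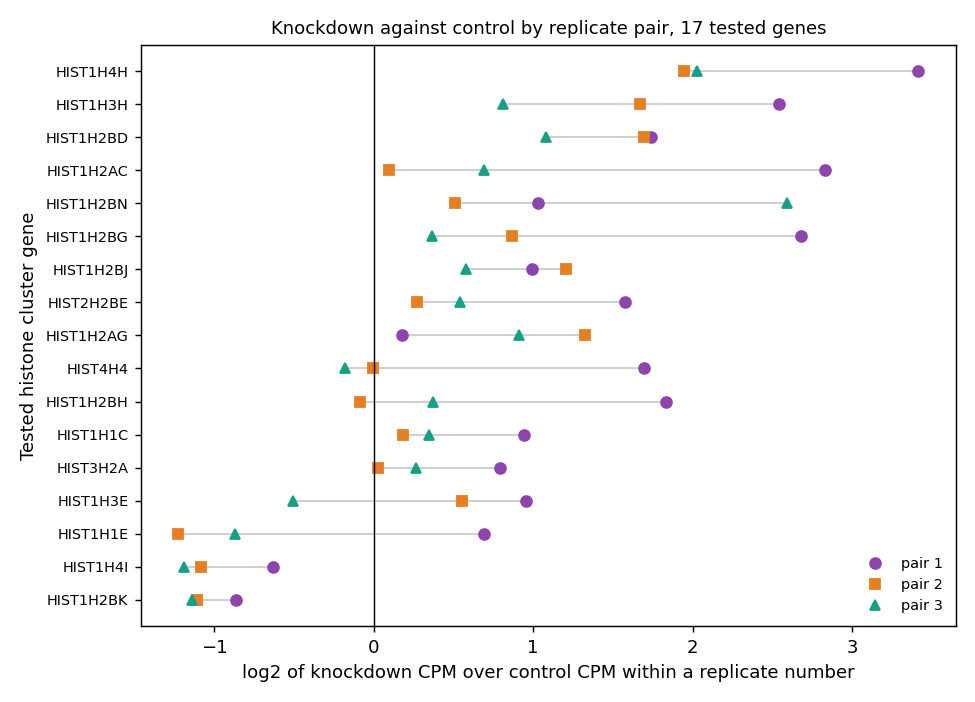
Log2 of knockdown CPM over control CPM (horizontal axis) within each replicate number for the 17 tested histone genes (vertical axis), with a line from the lowest to the highest pair. HIST1H2BK and HIST1H4I lie below 0 in all 3 pairs, and 1 pair of HIST1H2AC (2.83) lies far from its others (0.09 and 0.69).

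Of the core histones, H4 wraps DNA as a dimer with H3, and 2 of its genes moved in opposite directions. HIST1H4H (chromosome 6, 26277609 to 26285638, minus strand, hg38) had 22, 27 and 26 counts in knockdown libraries, against 2, 6 and 7 counts in control libraries. Its levels were 1.62 ± 0.16 CPM in knockdown cells and 0.333 ± 0.17 CPM in control cells (SD, n = 3 each). Every knockdown library was above every control library, and HIST1H4H passed the filter through the knockdown libraries alone, so the absence of overlap is no separate evidence. The log2 fold change of HIST1H4H with the block was 2.28 ± 0.43 (SE; adjusted p = 0.0119 in edgeR's quasi-likelihood test). Without the block the log2 fold change of HIST1H4H was 2.25 (edgeR adjusted p = 0.529), and over all alternatives its adjusted p ran between 7.83e-05 and 1.

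HIST1H4I (chromosome 6, 27138588 to 27139881, plus strand) had 26, 32 and 30 counts in knockdown libraries, against 39, 58 and 75 counts in control libraries. These were 1.72, 1.93 and 2.05 CPM in knockdown libraries and 2.67, 4.10 and 4.68 CPM in control libraries, with no overlap. The log2 fold change of HIST1H4I with the block was -0.98 ± 0.24 (SE; edgeR adjusted p = 0.0296), against -1.0 without it (edgeR adjusted p = 0.6). Its adjusted p ran between 0.000676 and 1 over the alternatives. In blocked fits that left out a pair, HIST1H4I was called without pair 1 and not without pair 2 or pair 3. The third H4 gene tested, HIST4H4 on chromosome 12, stood at 5.30, 1.69 and 1.44 CPM in knockdown libraries and 1.64, 1.70 and 1.62 CPM in control libraries. Its difference lay in replicate 1 alone, and the blocked fit did not call it (log2 fold change 0.60, edgeR adjusted p = 0.334).

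H2B, the partner of H2A in the nucleosome, gave the other pair of calls, again in opposite directions. HIST1H2BD (chromosome 6, 26158146 to 26171349, plus strand) had 86, 53 and 54 counts in knockdown libraries, against 25, 14 and 28 counts in control libraries. Its levels were 5.70, 3.20 and 3.69 CPM in knockdown libraries and 1.71, 0.99 and 1.75 CPM in control libraries. All 3 pairs were higher in knockdown cells, by 1.74, 1.70 and 1.08 on the log2 scale. The log2 fold change of HIST1H2BD with the block was 1.49 ± 0.25 (SE; edgeR adjusted p = 0.00866), and without it 1.49 (edgeR adjusted p = 0.577). Over the alternatives its adjusted p ran between 1.08e-05 and 1.

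HIST1H2BK (chromosome 6, 27146418 to 27146798, minus strand) had 55, 84 and 71 counts in knockdown libraries, against 97, 155 and 171 counts in control libraries. Its levels were 3.64, 5.08 and 4.86 CPM in knockdown libraries and 6.63, 10.9 and 10.7 CPM in control libraries. Each knockdown library was below each control library. The log2 fold change of HIST1H2BK with the block was -1.04 ± 0.16 (SE; edgeR adjusted p = 0.00514), and without it -1.06 (edgeR adjusted p = 0.582). Over the alternatives its adjusted p ran between 1.35e-09 and 1. Of the 50-base windows of its 381-base model, 74.1% occur in transcripts of other genes too, and 61.4% occur in H2BFS of chromosome 21. The 2 rows named H2BFS hold 1 and 0 counts in all, and how the authors' counting treated such reads is not given in the sources used here, so the level of HIST1H2BK is uncertain.

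**Figure D3:**
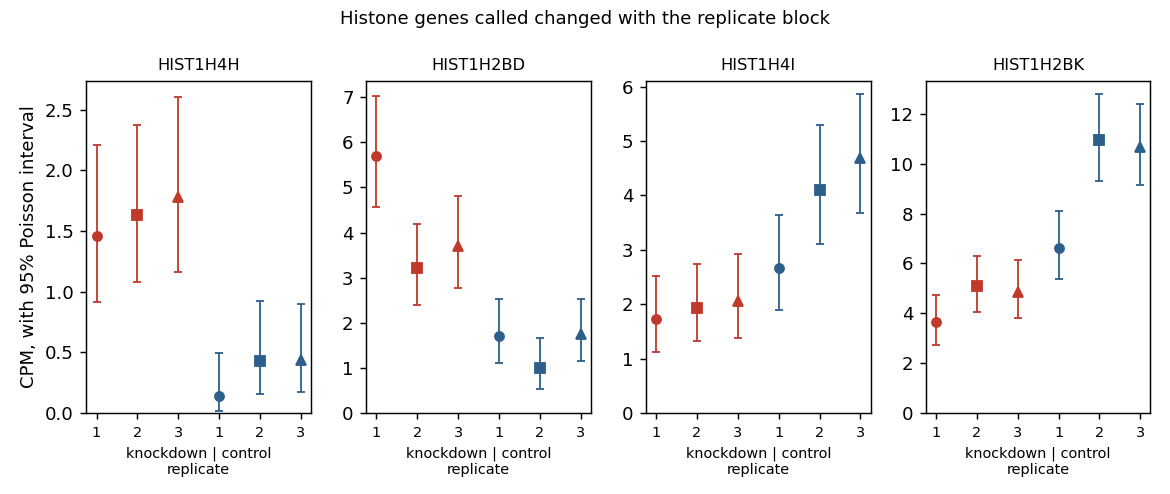
CPM (vertical axis) of the 4 histone genes called with the replicate block, with a point per library, knockdown replicates in red left of control replicates in blue, and exact Poisson 95% intervals that cover counting error only. HIST1H4H and HIST1H2BD are higher and HIST1H4I and HIST1H2BK lower in every knockdown library.

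The promoters of the H2B genes that moved in opposite directions are shown from RefSeq (GRCh38.p14), from 250 bases before to 50 bases after the start. Capitals mark 3 short motifs common in histone promoters. These are the TATA box, searched as TATAAA or its complement TTTATA, the CCAAT box, searched as CCAAT or its complement ATTGG, and the octamer, searched as ATTTGCAT or its complement ATGCAAAT. The TATA box and its complement can overlap, and they do so in the HIST1H2BK sequence.
HIST1H2BD promoter, chr6:26157871-26158170, plus strand: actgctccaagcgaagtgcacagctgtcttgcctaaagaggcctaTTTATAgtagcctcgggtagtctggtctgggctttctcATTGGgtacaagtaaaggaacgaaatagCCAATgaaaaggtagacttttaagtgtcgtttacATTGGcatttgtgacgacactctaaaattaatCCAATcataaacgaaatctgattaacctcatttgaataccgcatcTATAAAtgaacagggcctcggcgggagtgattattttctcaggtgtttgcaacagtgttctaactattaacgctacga
HIST1H2BK promoter, chr6:27146809-27147108, minus strand: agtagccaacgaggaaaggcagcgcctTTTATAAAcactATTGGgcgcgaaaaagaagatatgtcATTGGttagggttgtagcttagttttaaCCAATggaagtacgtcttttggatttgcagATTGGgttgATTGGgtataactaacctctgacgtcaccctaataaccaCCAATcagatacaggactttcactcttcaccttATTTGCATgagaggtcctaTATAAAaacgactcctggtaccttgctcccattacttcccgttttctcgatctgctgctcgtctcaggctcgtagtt
The HIST1H2BD window held 4 CCAAT boxes and 0 octamers, and the HIST1H2BK window held 6 CCAAT boxes and 1 octamer. Over the 61 histone genes with a RefSeq promoter, 65.6% held the TATA box, 83.6% the CCAAT box and 42.6% the octamer, on either strand. Over all 35116 promoters of the table these shares were 11.5%, 34.6% and 1.77%. In the HIST1H4H window none of the 3 motifs was found, and in that of HIST1H4I there was 1 CCAAT box.

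The other H2B genes tested had positive log2 fold changes and no call in edgeR with or without the block. HIST2H2BE, an H2B gene of chromosome 1 known to give polyadenylated messages too (149884459 to 149886652), stood at 17.1, 4.35 and 5.27 CPM in knockdown libraries and 5.74, 3.60 and 3.62 CPM in control libraries. It was higher within each pair, by 1.57, 0.27 and 0.54 on the log2 scale, but the groups overlapped. The log2 fold change of HIST2H2BE with the block was 0.88 ± 0.25 (SE; edgeR adjusted p = 0.052), and without it 1.04 (edgeR adjusted p = 0.929). It was called in 5 of the alternatives. HIST1H2BJ was at 2.72, 2.12 and 2.05 CPM in knockdown libraries and 1.37, 0.92 and 1.37 CPM in control libraries, without overlap and without a call (log2 fold change 0.91 in both fits, edgeR adjusted p = 0.076 with the block and 0.65 without it). HIST1H2BG and HIST1H2BN had log2 fold changes of 1.16 and 1.18 with the block and were not called. HIST1H2BH stood at 0.73, 0.67 and 0.89 CPM in knockdown libraries and 0.21, 0.71 and 0.69 CPM in control libraries, and its groups overlapped.

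No H2A gene was called in either fit. HIST3H2A (chromosome 1, 228456979 to 228457873) was at 22.5, 4.47 and 4.65 CPM in knockdown libraries and 13.0, 4.38 and 3.87 CPM in control libraries, and replicate 1 was high in both groups. All 3 pairs were higher in knockdown cells, by 0.79, 0.03 and 0.26 on the log2 scale. The log2 fold change of HIST3H2A with the block was 0.44 ± 0.18 (SE; edgeR adjusted p = 0.135), and 0.15 without pair 1. Without the block it was 0.58 (edgeR adjusted p = 1), and leaving out knockdown replicate 1 while control replicate 1 stayed gave -0.64. HIST1H2AC (chromosome 6, 26124145 to 26139116) was at 18.5, 6.11 and 6.36 CPM in knockdown libraries and 2.60, 5.72 and 3.93 CPM in control libraries. Every knockdown library of HIST1H2AC exceeded every control library, yet the pair differences of 2.83, 0.09 and 0.69 on the log2 scale were far apart. The blocked log2 fold change of HIST1H2AC was 1.19 ± 0.52 (SE; edgeR adjusted p = 0.198), and the unblocked one 1.34 (edgeR adjusted p = 0.772). HIST1H2AG stood at 0.93, 2.66 and 1.64 CPM in knockdown libraries and 0.82, 1.06 and 0.87 CPM in control libraries, with knockdown replicate 1 the lowest of its group. HIST2H2AA3 and HIST2H2AA4, which share 97.1% to 100% of their 50-base windows and cannot be separated by such reads, took 32, 10 and 7 counts together in knockdown libraries and 8, 3 and 1 in control libraries.

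H1, which binds the linker DNA between nucleosomes, and H3 gave no call either. HIST1H1C (chromosome 6, 26055787 to 26056428) was at 10.3, 6.59 and 6.43 CPM in knockdown libraries and 5.33, 5.79 and 5.06 CPM in control libraries, without overlap (log2 fold change 0.50 with the block, edgeR adjusted p = 0.113, and 0.53 without it, edgeR adjusted p = 0.852). HIST1H1E stood at 0.66, 0.30 and 0.41 CPM in knockdown libraries and 0.41, 0.71 and 0.75 CPM in control libraries, and HIST1H1D had 13 counts in all. HIST1H3H was at 1.19, 1.57 and 1.09 CPM in knockdown libraries and 0.21, 0.49 and 0.62 CPM in control libraries. It passed the filter through the knockdown libraries alone, and was not called (log2 fold change 1.53 ± 0.44, SE, with the block, edgeR adjusted p = 0.0527, and 1.52 without it, edgeR adjusted p = 0.591). HIST1H3E was at 0.79, 0.73 and 0.62 CPM in knockdown libraries and 0.41, 0.49 and 0.87 CPM in control libraries. HIST1H3G, with 28 counts in knockdown libraries and 12 in control libraries, was not tested.

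Per length, 3 genes led the histone transcripts in knockdown cells at like levels, and HIST1H2BK led in control cells. HIST1H1C, HIST1H2BK and HIST3H2A averaged 11.9 ± 3.05, 11.8 ± 2.22 and 11.5 ± 11.1 FPKM in knockdown cells (SD, n = 3), and these levels lie within their spread of each other. In control cells HIST1H2BK averaged 24.8 ± 6.62 FPKM, HIST1H1C 8.40 ± 0.62 FPKM and HIST3H2A 7.85 ± 5.57 FPKM (SD, n = 3). The models of HIST1H2BK and HIST1H1C hold coding sequence alone, which shortens the length these levels are divided by.

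Sums by annotated 3′ end differed in how they compared between groups. The reach of a model was measured on the transcript with a stem-loop that runs furthest past it. Other transcripts of the same gene can end elsewhere, and the gene counts include them. The 9 genes whose model so measured ends within 100 bases of the stem-loop summed to 9.14, 5.26 and 5.13 CPM in knockdown libraries. In control libraries they summed to 3.49, 2.26 and 2.50 CPM, with pair ratios of 2.62, 2.33 and 2.05. HIST1H2BD is the only one of the 9 that was tested, and it made up much of their sum. It held 5.70, 3.20 and 3.69 CPM in knockdown libraries and 1.71, 0.99 and 1.75 CPM in control libraries. HIST1H2BD has 2 annotated transcripts and its gene runs from 26158146 to 26171349, so its class describes the stem-loop transcript only. The 23 genes whose model runs at least 100 bases past the stem-loop summed to 81.3, 33.0 and 32.4 CPM in knockdown libraries, against 31.0, 26.9 and 24.6 CPM in control libraries, with pair ratios of 2.62, 1.22 and 1.32. Both sums were higher in every knockdown library. The 39 genes with no stem-loop in the model summed to 17.8, 16.3 and 16.9 CPM in knockdown libraries, against 15.0, 20.8 and 19.9 CPM in control libraries, and overlapped.

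A single gene set the direction of the sum over genes with no stem-loop in the model, a class that describes the annotation. Without HIST1H2BK, chosen after its values were seen, the other 38 genes with no stem-loop summed to 14.2, 11.2 and 12.0 CPM in knockdown libraries and 8.34, 9.82 and 9.24 CPM in control libraries. Among the called genes HIST1H4H runs 1655 bases past its stem-loop with 5 matches to a poly(A) signal (AATAAA, or the same with T as its second base). HIST1H4I runs 212 bases with 0, and the HIST1H2BD transcript with the stem-loop runs 39 bases with 1. HIST2H2BE runs 1729 bases with 1 signal and HIST1H2AC runs 1128 bases with 3. The counts do not show where in a gene the reads fell, so use of either 3′ end was not measured.

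**Figure D4:**
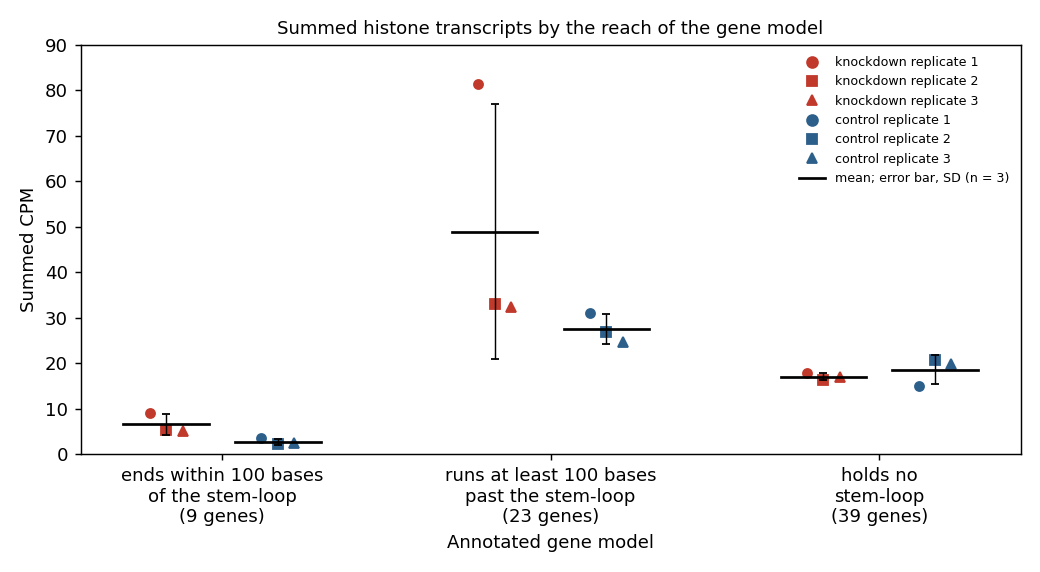
Summed CPM (vertical axis) of histone genes grouped by how far the annotated transcript with the stem-loop runs past it (horizontal axis). Shown are a point per library, knockdown in red left of control in blue, and the mean and SD of 3 libraries. Knockdown libraries are above all control libraries in the first 2 classes, and the groups overlap among genes with no stem-loop in the model (17.8, 16.3 and 16.9 CPM against 15.0, 20.8 and 19.9 CPM).

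Many H2A and H2B genes lie head to head and share a promoter region, and 12 pairs of histone genes had start sites within 400 bases. HIST1H2BJ and HIST1H2AG, 292 bases apart, were the one pair with both genes tested, and their blocked log2 fold changes were 0.91 and 0.87 (edgeR adjusted p = 0.076 and 0.135). In 3 other pairs, chosen after their values were seen, the partners had unlike levels. HIST2H2BE averaged 8.90 CPM in knockdown cells and 4.32 CPM in control cells, whereas HIST2H2AC, 323 bases away, averaged 0.347 CPM in knockdown cells and 0.35 CPM in control cells. HIST1H2BK averaged 4.53 CPM in knockdown cells and 9.42 CPM in control cells, and its partner HIST1H2AH had 4 counts over all 6 libraries. HIST3H2A averaged 10.5 CPM in knockdown cells and 7.08 CPM in control cells, and HIST3H2BB averaged 0.759 CPM in knockdown cells and 0.225 CPM in control cells.

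No gene of the lists that follow was called without the block, and counts with the block stand against the 5.48% of all genes tested that rose and the 8.01% that fell. Among 11 genes tested from a list of replication-independent histone genes, 1 rose and 4 fell. Such genes are typically expressed outside S phase and polyadenylated, which was not checked for each gene here. H2AFJ rose by 0.47 (edgeR adjusted p = 0.00566) and H2AFX fell by 0.47 on the log2 scale (edgeR adjusted p = 0.0034). H2AFX, the H2A variant phosphorylated at DNA breaks, was at 39.3, 166 and 163 CPM in knockdown libraries and 57.3, 217 and 229 CPM in control libraries. H3F3B, which encodes H3.3, also fell, by 0.35, and H2AFZ had a value of -0.16 without a call.

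Of 27 genes for histone transcription and 3′ end processing, 1 rose and 2 fell with the block, and the list median was 0.005 on the log2 scale. MIF4GD, a partner of SLBP in translation, rose by 0.39 (edgeR adjusted p = 0.0431). ERI1, the exonuclease that trims histone 3′ ends, fell by 0.45 (edgeR adjusted p = 0.0128), and LSM11 of the U7 snRNP fell by 0.44 (edgeR adjusted p = 0.0467). SLBP stood at 45.7, 95.8 and 95.4 CPM in knockdown libraries and 52.6, 107 and 109 CPM in control libraries, and was not called (log2 fold change -0.19, edgeR adjusted p = 0.0807). NELFA, NELFB and NELFE were not called either. Of 16 histone chaperones, 0 rose and 2 fell, CHAF1A by 0.29 and ANP32E by 0.28 on the log2 scale.

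S-phase genes that were called all fell. Of 28 S-phase and DNA replication genes, 0 rose and 8 fell with the block, against 5.48% and 8.01% of all genes tested, with a list median of -0.20 on the log2 scale. MCM6 and MCM5, of the replicative helicase, fell by 0.49 and 0.39 (edgeR adjusted p = 0.0129 and 0.0207). E2F1, an activator of S-phase genes, fell by 0.50 and PCNA, the polymerase clamp, by 0.37 (edgeR adjusted p = 0.0199 and 0.0255). RRM1, a subunit of ribonucleotide reductase, had a value of -0.06 without a call. The list summed to 1132, 4070 and 4026 CPM in knockdown libraries and 1524, 4520 and 4498 CPM in control libraries. Replicate 1 was thus low in both groups for S-phase genes. For the sum of all 71 histone cluster genes, knockdown replicate 1 was high and control replicate 1 was like its group. Parts of that sum stood apart in control replicate 1. HIST1 genes were at 26.5 CPM there, against 39.0 and 36.3 CPM in control replicates 2 and 3. HIST3 genes were at 14.1 CPM there, against 4.52 and 3.99 CPM. The part of these differences between replicates in the histone values was not tested. In bulk libraries a change in the number of cells in S phase and a change in RNA per cell cannot be told apart.

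**Figure D5:**
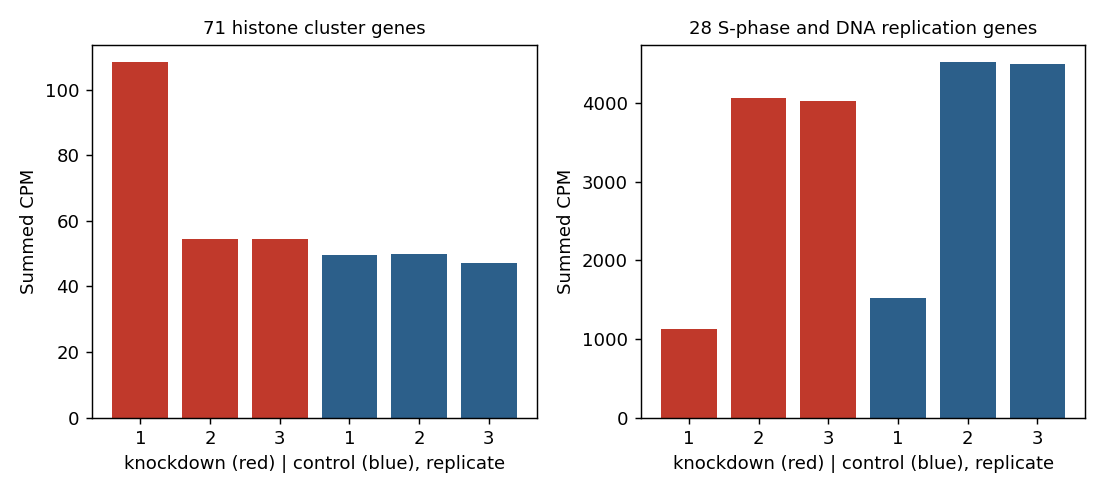
Summed CPM (vertical axes, each from 0) in each library (horizontal axes) of the 71 histone cluster genes and of 28 S-phase and DNA replication genes, with knockdown in red left of control in blue. Knockdown replicate 1 has the highest histone sum (108.3 CPM) and the lowest S-phase sum (1132 CPM).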

How the data were processed

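Per the labels' protocols, total RNA was extracted from the Mum-2b cells with either of 2 kits (not assigned to libraries) and libraries were made with a SMARTER mRNA-seq kit. The authors deposited a whole-number count and an FPKM value per gene and library. Per the submitters' processing notes the build was hg38, and the aligner, counter, strand setting and treatment of multiply mapped reads are not given in the sources used here. The deposited counts summed to 14306733 to 16656630 per library, and counting error limits genes of few counts.

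The tested comparison, 3 knockdown against 3 control libraries, was fitted on counts over 14844 of 58735 genes with edgeR 4.0.16 in R 4.3.3 (filterByExpr, TMM, robust quasi-likelihood, group term), with Benjamini-Hochberg adjustment over all of them and a threshold of 0.05. SE is the absolute log2 fold change over the square root of F. The script was tested on simulated data. Replicate numbers came from the titles, and same-numbered libraries deviated together (correlations 0.878, 0.742 and 0.732 over 14844 genes). The fit with a replicate block is therefore given beside the fit without it. Deviations within a group of 3 sum to 0, so the values for replicates 2 and 3 follow largely from replicate 1. They cannot show whether replicates 2 and 3 are rightly paired. The members and gene lists were chosen with earlier results of these data known. Genes named were the 3 of highest mean CPM in each histone type and every gene called in either fit; for other lists, up to 4 genes called with the block and up to 2 uncalled ones of highest CPM, plus NELF subunits and SLBP. Other genes named were chosen after their values were seen. Sums over genes are descriptive and carry no test. Alternatives were other scalings, filters, DESeq2 1.42.0, limma 3.58.1 (voom, and log2(FPKM + 1), a pseudocount of 1), summed FPKM, and leaving out libraries or pairs. Fold changes on the log2(FPKM + 1) scale understate low genes.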

Additional observations from a re-analysis of the deposited data

How the results depend on the processing

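Without the replicate block no scaling, filter or left-out library gave a called histone gene in edgeR, limma-voom or limma, while DESeq2 called 1 that rose and 0 that fell. With the replicate block edgeR called 2 that rose and 2 that fell, also under DESeq2 size factors (5.19% and 8.55% of all genes). Under upper-quartile scaling 4 rose and 2 fell (8.07% and 6.64% of all genes), with no filter 6 and 2 (3.48% and 5.51%), with a mean of at least 5 CPM 0 and 1 (7.15% and 9.69%), in DESeq2 1 and 1, and in limma-voom 3 and 2. These filters change which histone genes are tested. HIST1H2BD, HIST1H4H and HIST1H4I averaged 2.84, 0.978 and 2.86 CPM over all libraries, so the filter at 5 CPM left them untested. With no filter all 60 histone genes with counts were tested. Leaving out a library or pair gave 0 to 5 that rose and 0 to 2 that fell. With the block, 4 rose and 2 fell without pair 1 (12.7% and 14.9% of all genes), 3 and 1 without pair 2 (2.01% and 4.09%), and 5 and 1 without pair 3 (4.27% and 7.29%). HIST1H2BK, HIST1H2BD and HIST1H4H were called each time, in fits that reuse the same libraries and leave 1 residual degree of freedom. The median log2 fold change of the tested genes was 0.32 with no filter, 0.33 with no filter and the block, 0.32 on log2(FPKM + 1), and 0.39 to 0.98 on leaving out libraries. The log2 ratio of summed CPM turned to -0.48 for H1 without HIST1H1C, and to -0.23 for H2B and -0.087 for H4 in summed FPKM. Without its highest gene it was 1.10 for H2B, 0.40 for H3 and 0.98 for H4. Leaving out single libraries gave 0.17 to 1.19 for H2A, -0.058 to 0.29 for H4 and, over all 71 genes, 0.16 (without knockdown replicate 1) to 0.74. Without HIST1H2BK and HIST1H4I, an alternative chosen after seeing the data, the ratio over the other 69 genes was 0.89. Single genes turned sign for HIST3H2A (-0.64 to 1.35), HIST1H3E (-0.016 to 0.73) and HIST4H4 (-0.087 to 1.06, and -0.081 without knockdown replicate 1) on leaving out libraries. The cause of these shifts was not tested. The low-count filter kept 54 of the 71 genes out of the test, and 11 had no count.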

Other observations

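Another 19 rows with HIST names are annotated as pseudogenes and were kept out of the 71 genes. Of these, 9 had counts, and the rows summed to 9.34, 5.26 and 4.92 CPM in knockdown libraries and 5.06, 2.83 and 4.37 CPM in control libraries. Knockdown replicate 1 was the highest there as well, and the groups overlapped.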
